A study of Mus musculus with 4 samples.

Results

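The 10 genes described here encode antiviral effector proteins that interferons induce: Isg15, Usp18, Isg20, Rsad2, Mx2, Ifi44, Xaf1, Ifit1, Ifit3 and Bst2. They were picked by gene symbol with earlier results of these data known, no measured value being part of the rule, and are 10 of 23238 symbols in the count tables. Oligoadenylate synthetases, PYHIN proteins, guanylate-binding proteins and nucleic acid sensors were not part of the choice. All 10 had counts, and 9 passed the filter on low counts and were tested, Ifit3 being the exception. The measurements come from mouse CD4+ T cells of the C57BL/6j strain, 2 libraries labelled WT and 2 labelled PDK4 KO, which asked how the loss of Pdk4, a kinase that inhibits the pyruvate dehydrogenase complex, alters transcript levels. In both genotypes naive cells were taken from spleen and lymph nodes by magnetic sorting and stimulated in culture with CD3, CD28 and IL-2 for 48 hours, and 500 ng of RNA entered a 3' end sequencing library. The labels give no allele for the knockout and no age or sex, and all 4 libraries are of stimulated cells. Whether a genotype's 2 libraries stem from different animals or cultures is not stated, and the p-values then reflect only how far these libraries differ, a spread that may be technical.

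Cells make these proteins when type I, II or III interferon binds its receptor. Type I interferon acts through the kinases Jak1 and Tyk2 and the ISGF3 complex, which holds Stat2 and Irf9 and binds a promoter element called the interferon-stimulated response element (ISRE). Type II interferon acts mainly through another element, the gamma-activated site (GAS). The products block viruses at several steps, and some, such as Usp18, also limit the response itself.

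The promoters are shown because members that move together may be compared by what lies before their start sites. RefSeq promoter windows (GRCm38.p6, 300 bases each, 250 before to 50 after the annotated start) were matched for 8 of the 10 members, without Usp18 and Mx2. The ISRE core was searched on both strands as a pair of GAAA words with any 2 bases between them, and the GAS core as TTCNNNGAA. A match to the ISRE core lay in the windows of 5 members, Isg15, Rsad2, Ifit1, Ifit3 and Bst2, against 3.99% of the 27025 genes in the table and 3.44% of its 32851 windows. As the members were picked as genes that interferons induce, contrasts with all windows describe the choice and are no independent evidence. The stretches from 170 to 21 bases before the start follow, on the gene's strand, with ISRE core matches in capitals. They are chr4:156200839-156200988 (minus strand) for Isg15, chr8:71537493-71537642 (minus) for Bst2, chr19:34640719-34640868 (plus) for Ifit1, chr19:34583359-34583508 (plus) for Ifit3 and chr12:26456473-26456622 (minus) for Rsad2. That of Ifi44, chr3:151749931-151750080 (minus), is shown as the member with the highest log2 fold change, whose window held no match at the searched spacing. The Ifi44 stretch does hold tttcagttttcgtttc, in which TTTC, or GAAA on the other strand, recurs at other spacings. The search did not count these.
Isg15: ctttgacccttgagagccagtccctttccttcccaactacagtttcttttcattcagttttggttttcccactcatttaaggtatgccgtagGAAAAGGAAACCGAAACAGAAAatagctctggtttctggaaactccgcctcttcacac
Bst2: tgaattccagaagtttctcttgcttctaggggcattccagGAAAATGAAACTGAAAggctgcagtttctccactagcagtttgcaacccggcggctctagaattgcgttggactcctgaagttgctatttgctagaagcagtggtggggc
Ifit1: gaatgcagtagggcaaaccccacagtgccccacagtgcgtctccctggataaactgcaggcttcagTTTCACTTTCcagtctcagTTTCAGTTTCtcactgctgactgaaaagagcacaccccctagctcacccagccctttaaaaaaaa
Ifit3: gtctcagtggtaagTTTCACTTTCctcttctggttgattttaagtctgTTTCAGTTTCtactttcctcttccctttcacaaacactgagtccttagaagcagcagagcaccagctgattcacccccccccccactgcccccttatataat
Rsad2: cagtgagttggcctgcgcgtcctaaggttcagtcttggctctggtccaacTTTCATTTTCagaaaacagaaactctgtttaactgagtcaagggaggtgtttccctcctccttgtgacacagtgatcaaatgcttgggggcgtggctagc
Ifi44: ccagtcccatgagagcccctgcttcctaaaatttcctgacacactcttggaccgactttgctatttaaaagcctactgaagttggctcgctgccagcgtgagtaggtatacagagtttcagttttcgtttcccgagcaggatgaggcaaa

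Isg15 had 3 overlapping matches, from -78 to -57 relative to the start. Bst2 had 2 overlapping matches, from -130 to -115, and a GAS core at -136 to -128 that overlaps them. Ifit1 and Ifit3, neighbours on chromosome 19, each had 2 separate matches in the opposite orientation, at -104 to -95 and -85 to -76 in Ifit1 and at -156 to -147 and -122 to -113 in Ifit3. Windows with at least 2 matches made up 0.225% of all windows. Rsad2 had 1 match at -120 to -111. Ifi44, Xaf1 and the 3 windows of Isg20 held none, and the first Isg20 window had a GAS core at -73 to -65. A GAS core match was present in 9.55% of genes. A match is a string of letters and was not tested as a binding site.

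**Figure D1:**
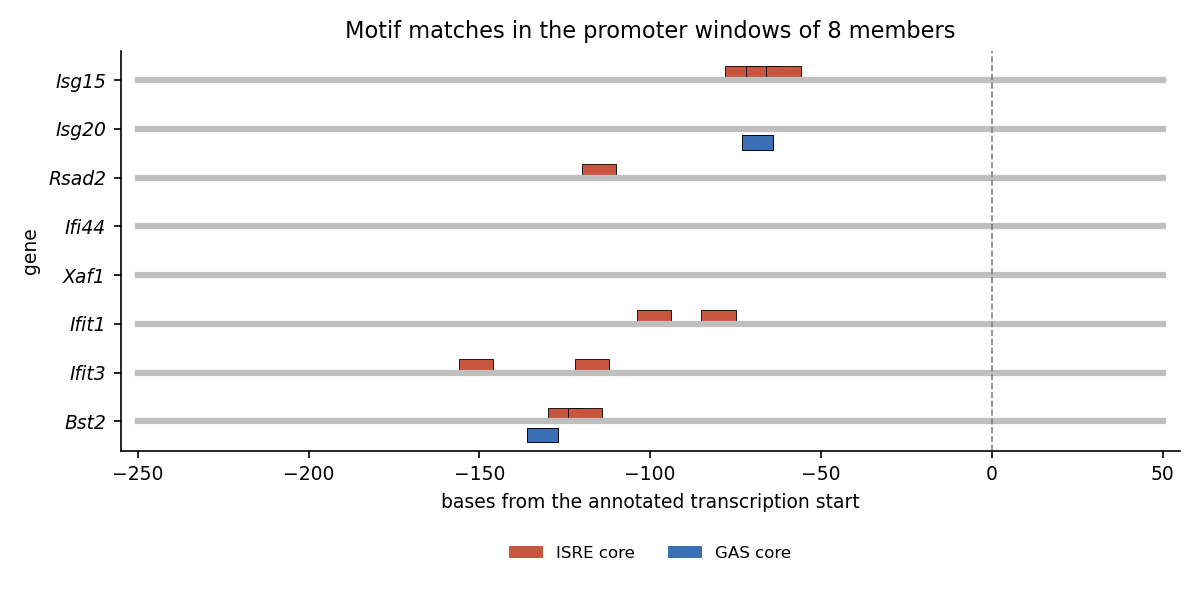
Matches to the ISRE core (red) and the GAS core (blue) in the promoter windows of the 8 matched members, by distance in bases from the annotated start (dashed line). Grey lines span the 300-base windows, and for Isg20 the first of 3 windows holds the match. Isg15, Rsad2, Ifit1, Ifit3 and Bst2 have ISRE core matches between -156 and -57.

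Transcripts of these effectors were more abundant in the knockout libraries. Isg15, Ifi44, Mx2, Xaf1 and Rsad2 rose, by log2 fold changes of 1.55 to 2.45, while Isg20, Usp18, Bst2 and Ifit1 had higher values in the knockout but did not pass the test, and Ifit3 was too low to test. The 5 rises and 0 falls among 10 members stand against 1.45% of the 11464 tested genes that rose and 1.21% that fell (edgeR's quasi-likelihood test, Benjamini-Hochberg adjusted p under 0.05). As the genes were picked with earlier results known, the contrast between these shares describes the 10 and is no independent evidence. DESeq2 and limma-voom also gave 5 rises and 0 falls, and 9 members had an unadjusted p under 0.05 in edgeR, all with the higher value in the knockout. Many other genes also lay under that looser threshold, since Ifit1 stood only at place 827 of the 11464 tested genes in the unadjusted order. The share of all tested genes under it is not given here, so this count does not set the members apart. Both knockout libraries lay above both wild-type libraries for each of the 10, a pattern found in 21.5% of tested genes. The median log2 fold change was 1.55 over the 9 tested members and 0.00041 over all tested genes. Summed over the 10, the level was 92.2 and 101.7 in counts scaled to library size (CPM, TMM-normalised) in the wild-type libraries and 228 and 253 in the knockout libraries, replicate 1 given before replicate 2 here and throughout. Isg15 made up 32.0% of the difference between the genotype means, and Isg15 and Ifi44 together 54.9%. In the same libraries 9 of 12 tested B cell markers fell, and their part in the levels of the members was not tested. In these bulk libraries, a change in the number of expressing cells and a change in RNA per cell cannot be told apart.

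**Figure D2:**
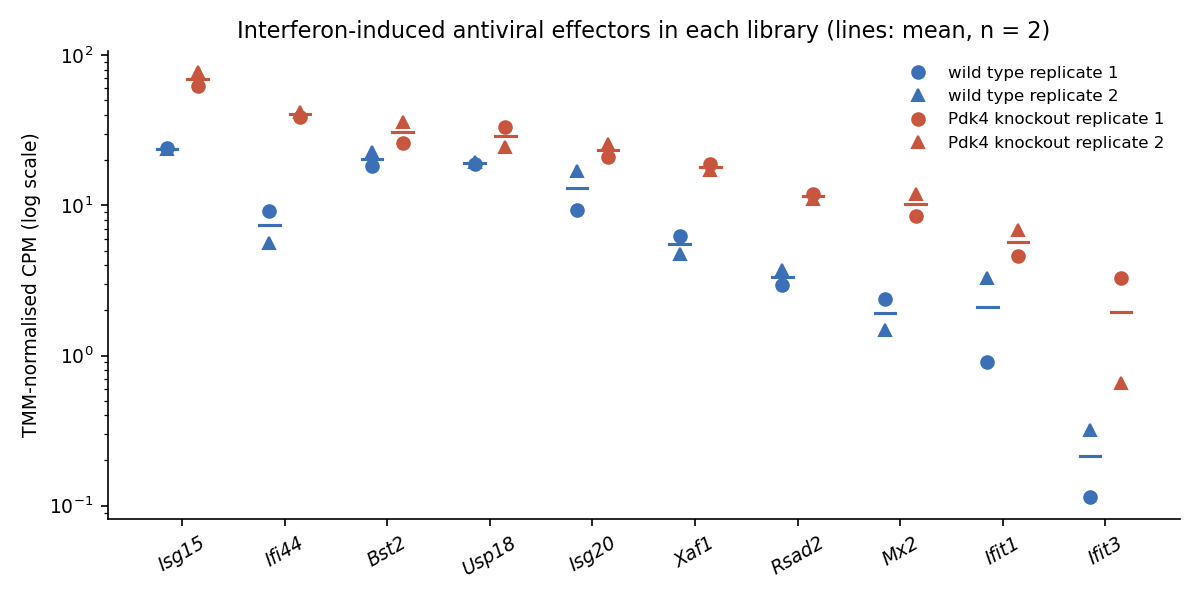
TMM-normalised CPM (log axis) of the 10 members in each of the 4 libraries, wild type in blue and Pdk4 knockout in red, circles for replicate 1, triangles for replicate 2 and lines for the mean of n = 2. For each member both red points lie above both blue points, with the narrowest gap for Bst2 and Isg20 and a wide spread within the knockout for Ifit3.

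Isg15 and Usp18 form a pair, since Isg15 is a ubiquitin-like protein that is attached to other proteins and Usp18 is the protease that removes it. Isg15 (chromosome 4, 156199424 to 156200818, GRCm38) was at 24.0 and 23.7 CPM in wild type and 62.3 and 77.2 CPM in knockout. The wild-type libraries were nearly equal, and the gap to the knockout was wider than the spread within it. The log2 fold change was 1.55 (SE 0.153, adjusted p = 2.81e-08), the means being 23.8 ± 0.229 and 69.8 ± 10.5 CPM (SD, n = 2 each). Usp18 (chromosome 6, 121245906 to 121270917), which also binds the type I interferon receptor and dampens its signal, was at 18.8 and 19.4 CPM in wild type and 33.2 and 24.6 CPM in knockout. Its libraries did not overlap, yet the knockout pair differed by more than the gap between knockout replicate 2 and wild type. The log2 fold change of 0.60 (SE 0.205, 95% interval 0.18 to 1.02) did not pass the test (adjusted p = 0.131), and it was 0.36 without knockout replicate 1. In the annotation Usp18 overlaps the gene Gm44148 on the opposite strand, and the sources used here do not say whether counting kept strand apart, so that reads of the 2 genes may be mixed.

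Mx2 and Ifi44 are GTP-binding proteins. Ifi44 (chromosome 3, 151730922 to 151749960) encodes a cytoplasmic protein that is a common marker of the interferon response. Its level was 9.20 and 5.60 CPM in wild type and 38.8 and 41.8 CPM in knockout. Each knockout library was far above the higher wild-type library, and the log2 fold change of 2.45 (SE 0.230, adjusted p = 1.54e-08) had the third smallest p of all tested genes. Mx2 (chromosome 16, 97535308 to 97560900) belongs to the dynamin-like Mx GTPases, and the annotation marks it as a polymorphic pseudogene, so its transcript need not give a working protein in this strain. It was at 2.39 and 1.48 CPM in wild type and at 8.48 and 12.0 CPM in knockout. The groups were well apart (log2 fold change 2.40, SE 0.436, adjusted p = 0.000675). Among 11464 tested genes, the log2 fold changes of Ifi44 and Mx2 ranked 18 and 20 from the top.

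Rsad2, also known as viperin, makes a modified nucleotide that stops viral RNA synthesis, and Bst2, or tetherin, holds budding virus particles at the cell surface. Rsad2 (chromosome 12, 26442746 to 26456452) was at 2.95 and 3.70 CPM in wild type and 11.9 and 11.1 CPM in knockout. Both genotypes had close replicates, and the log2 fold change was 1.78 (SE 0.365, adjusted p = 0.00288). Bst2 (chromosome 8, 71534255 to 71537456) was at 18.3 and 22.6 CPM in wild type and 25.9 and 35.9 CPM in knockout. The knockout libraries differed from each other by more than the distance between the nearest libraries of the genotypes. The log2 fold change of 0.59 (SE 0.203, 95% interval 0.18 to 1.01) did not pass the test (adjusted p = 0.133), and it was 0.34 without knockout replicate 2.

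Xaf1 (chromosome 11, 72301629 to 72313733) encodes a protein that counters the caspase inhibitor XIAP and so favours cell death. It was at 6.25 and 4.75 CPM in wild type and 18.8 and 17.1 CPM in knockout. The genotypes were far apart compared with the replicates, and the log2 fold change was 1.71 (SE 0.291, adjusted p = 0.000261). Of the 36-base words in the last 500 bases of its transcripts, 4.69% also occur in transcripts of other genes, as do 6.45% for Isg15.

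Isg20 and Ifit1 act on RNA, and Ifit3 belongs to the same family as Ifit1. Isg20 is a nuclease that degrades single-stranded RNA, and Ifit1 binds RNA ends that lack the marks of host mRNA. Isg20 (chromosome 7, 78913424 to 78920396) was at 9.32 and 16.9 CPM in wild type and 21.1 and 25.6 CPM in knockout. Wild-type replicate 2 lay nearer to knockout replicate 1 than to wild-type replicate 1. The log2 fold change of 0.82 (SE 0.249, 95% interval 0.32 to 1.33) did not pass the test (adjusted p = 0.0744). It was 1.32 without wild-type replicate 2, when the gene passed (adjusted p = 0.00895), and 0.46 without wild-type replicate 1 (adjusted p = 0.511). Isg20 also passed with no filter (adjusted p = 0.0237) and with the stricter filter (adjusted p = 0.0427).

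Ifit1 (chromosome 19, 34640871 to 34650009) had 8 and 31 counts in wild type, or 0.909 and 3.27 CPM, and 45 and 63 counts in knockout, or 4.60 and 6.85 CPM. The exact 95% Poisson intervals of the wild-type counts, which cover counting error only, were 3.45 to 15.8 and 21.1 to 44.0, and did not overlap. The log2 fold change of 1.43 (SE 0.563, 95% interval 0.29 to 2.58) did not pass the test (adjusted p = 0.218), and ranged from 0.80 without wild-type replicate 1 to 2.63 without wild-type replicate 2. Ifit3 (chromosome 19, 34583531 to 34588731), which forms complexes with other Ifit proteins, had 1 and 3 counts in wild type and 32 and 6 in knockout. Both wild-type values were at or under the floor of 3 counts, and most of the knockout counts were in replicate 1. Over both libraries of a genotype this is 4 against 38 counts, a ratio per total count of 9.28 (exact 95% interval 3.34 to 35.8, counting error only). With no filter on low counts it had an adjusted p of 0.226. Its paralog Ifit3b had 4 counts, all in knockout replicate 2, and 20.0% of the 36-base words near the 3' end of Ifit3 also occur in Ifit3b, so the values of both are uncertain. The replicates did not move together between the neighbours: knockout replicate 1 was the higher one for Ifit3 and the lower one for Ifit1.

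The 3' end kit yields counts that do not scale with transcript length, and CPM levels are set side by side between genes on that basis. Other differences between genes, such as words near the 3' end that are shared with other transcripts, were not corrected for, so the orders are approximate. In wild type the order from high to low was Isg15, Bst2, Usp18, Isg20, Ifi44, Xaf1, Rsad2, Ifit1, Mx2 and Ifit3. The libraries of Bst2 and Usp18 overlapped, as did those of Ifi44 and Xaf1, of Rsad2 and Ifit1, and of Ifit1 and Mx2. In knockout the order was Isg15, Ifi44, Bst2, Usp18, Isg20, Xaf1, Rsad2, Mx2, Ifit1 and Ifit3, with overlap between Bst2 and Usp18, Usp18 and Isg20, and Rsad2 and Mx2. Ifi44 thus stood at place 5 in wild type and place 2 in knockout, while Isg15 was at the top and Ifit3 at the bottom of both orders.

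The members differed in how far their calls held over other ways of analysis. Isg15, Ifi44, Mx2, Xaf1 and Rsad2 passed in each of 13 alternative analyses, with log2 fold changes of 1.39 to 1.70 for Isg15, 2.13 to 2.84 for Ifi44, 2.09 to 2.78 for Mx2, 1.52 to 1.91 for Xaf1 and 1.63 to 1.95 for Rsad2. Usp18, Bst2 and Ifit1 passed in 0 of the alternatives run, DESeq2 and limma-voom included, with an adjusted p no lower than 0.0633, 0.0641 and 0.0763, although each had an unadjusted p under 0.05 (0.0063, 0.00657 and 0.0158). In the unadjusted order Usp18, Bst2 and Ifit1 stood at places 553, 567 and 827 of the 11464 tested genes. The 3 most abundant members of wild type after Isg15, namely Bst2, Usp18 and Isg20, had ratios of knockout to wild-type mean CPM of 1.51, 1.51 and 1.78. The ratio was 2.93 for Isg15, 2.74 for Ifit1 and between 3.26 and 5.45 for Xaf1, Rsad2, Mx2 and Ifi44. For Ifit3 it was 9.11, on 1 and 3 wild-type counts. Within the knockout, the exact 95% Poisson intervals of the 2 libraries were apart for 4 members (Isg15, Usp18, Ifit3 and Bst2), and within wild type for 2 (Isg20 and Ifit1). Replicate 2 was the higher library for 6 of 10 members in each genotype. Such counts were not made over all genes. Over genes above a minimum count, replicates also differed by more than counting error. The chi-square per degree of freedom was 5.4 between the wild-type libraries and 5.45 between the knockout libraries.

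**Figure D3:**
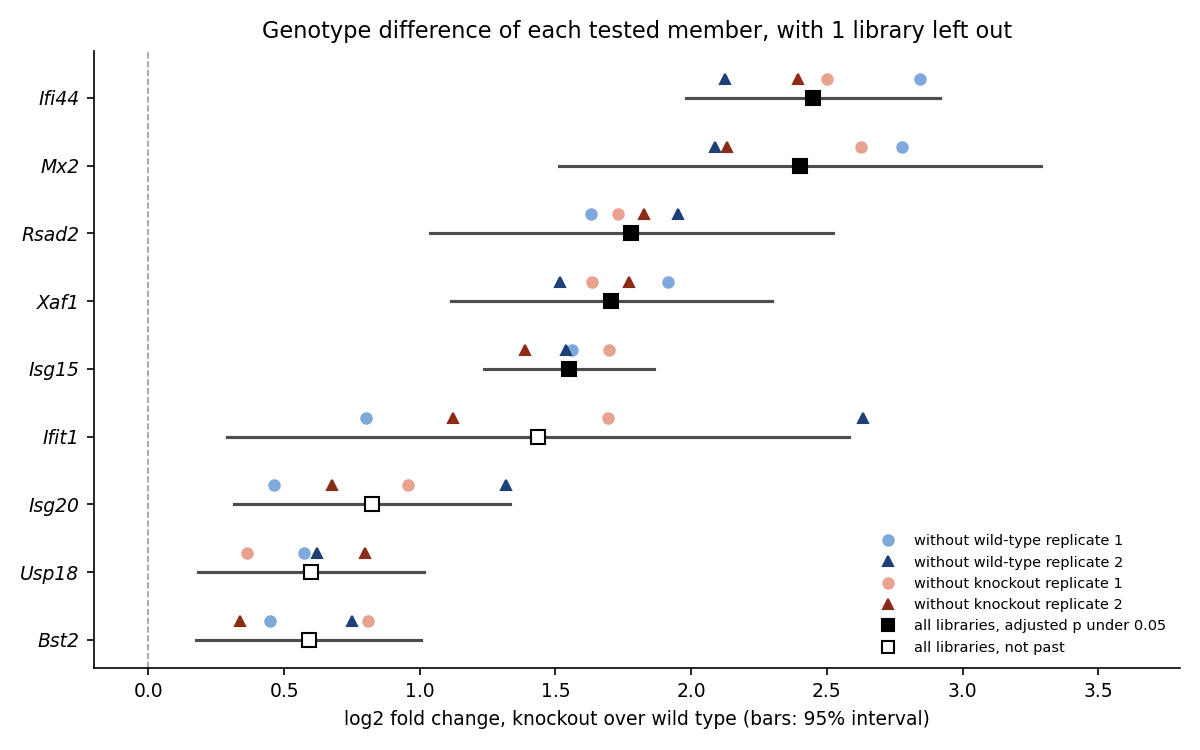
Log2 fold change of knockout over wild type for the 9 tested members, with 95% intervals as bars and filled squares for those that passed the test. Small symbols above each bar are the values with 1 library left out. Those of Ifit1 spread from 0.80 to 2.63, and those of Isg15 from 1.39 to 1.70.

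Members with and without a match to the ISRE core were found on both sides of the test. With a match, Isg15 and Rsad2 rose, Bst2 and Ifit1 did not pass and Ifit3 was not tested. Without a match at the searched spacing, Ifi44 and Xaf1 rose and Isg20 did not pass. Over all tested genes with a promoter window, 14 of 337 with a match rose (4.15%) and 4 fell (1.19%), and of 8404 without a match 99 rose (1.18%) and 101 fell (1.2%). Outside the members, 12 of 333 with a match rose (3.6%) and 97 of 8401 without one (1.15%). With 2 or more matches, 0 of 25 tested genes outside the members rose and 1 fell (4%). No test was run on these shares, and the 12 include related genes, 4 of them of the TRIM family (Trim12a, Trim30a, Trim30d and Trim34a).

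Transcripts of type I and type III interferons were at or under the floor of 3 counts in these cells, while that of type II interferon, Ifng, was present in all libraries. Of 21 ligand genes, 19 had 0 counts in all libraries, among them Ifnb1 and each of the Ifna genes listed, where a count of 0 allows up to 3 counts, or 0.308 to 0.339 CPM, per library. Ifnk had 1 count. Ifng was at 11.7 and 15.4 CPM in wild type and 7.97 and 7.28 CPM in knockout, lower in both knockout libraries but not past the test (log2 fold change -0.83, SE 0.296, adjusted p = 0.155).

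Of 16 tested genes for receptors and signal transducers 3 rose and 13 did not pass, with a median log2 fold change of 0.09. Beside this and the list counts below, 1.45% of all 11464 tested genes rose and 1.21% fell. The lists were chosen with earlier results of these data known, so such contrasts are no independent evidence. Irf7, the factor that amplifies type I interferon production, went from 10.9 and 8.87 CPM to 27.0 and 26.0 (1.42, SE 0.232, adjusted p = 0.000143), and passed in 13 of 13 alternatives. The ISGF3 subunits Stat2 and Irf9 rose as well. Stat2 was at 29.9 and 45.3 CPM in wild type and 58.1 and 57.7 in knockout (0.62, adjusted p = 0.0241), and Irf9 at 119 and 108.5 against 154 and 138 (0.36, adjusted p = 0.0434). Stat2 lost its call without wild-type replicate 1 (0.35, adjusted p = 0.402), knockout replicate 1 (0.122) or knockout replicate 2 (0.0964), and had a value of 0.95 on the log2 scale when wild-type replicate 2 was left out. Irf9 lost its call without wild-type replicate 2 (adjusted p = 0.329), knockout replicate 1 (0.439) or knockout replicate 2 (0.0577). DESeq2 and upper quartile scaling lost both. The receptor chain Ifnar1 was at 45.6 and 38.3 CPM against 55.5 and 54.0 (adjusted p = 0.187).

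Of 9 tested genes that restrain the pathway, Usp18 included, 1 fell and 8 did not pass, with a median of 0.04. Socs3, an inhibitor of JAK kinases, went from 201 and 209 CPM to 152 and 169 (-0.35, adjusted p = 0.0244), a call lost without wild-type replicate 2 (0.172) or knockout replicate 1 (0.372). Socs1 was at 126 and 126 CPM against 99.4 and 110 (adjusted p = 0.211), and Pias1 at 16.6 and 17.0 against 17.6 and 22.5 (adjusted p = 0.696).

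The enzymes that attach Isg15 were measured beside it. Of the list of 6, which holds Isg15 and Usp18, 4 rose and 2 did not pass, with a median of 0.74. The ligase Trim25 went from 72.7 and 85.3 CPM to 124.5 and 135 (0.72, SE 0.111, adjusted p = 6.67e-05) and passed in 13 of 13 alternatives. Herc6, the main Isg15 ligase of mice, went from 19.3 and 18.1 CPM to 33.5 and 29.6 (0.76, adjusted p = 0.0248), and was lost without wild-type replicate 2 (0.173) or knockout replicate 1 (0.233) and with DESeq2 (0.0971). The conjugating enzyme Ube2l6 went from 4.20 and 4.75 CPM to 10.0 and 11.3 (1.25, adjusted p = 0.0470), but passed in only 4 of 13 alternatives and was lost without any 1 of the libraries (adjusted p of 0.125 to 0.207). Uba7, the activating enzyme, was at 27.0 and 25.0 CPM against 27.1 and 27.5 (0.07, adjusted p = 0.930).

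Among 35 tested relatives of the members and other antiviral effectors, 6 rose, 2 fell and 27 did not pass, with a median of 0.27. Trim30a, a TRIM protein, went from 206 and 201 CPM to 312 and 316 (0.63, adjusted p = 3.29e-06), Lgals3bp, a secreted glycoprotein, from 51.6 and 56.7 to 93.8 and 86.1 (0.73, adjusted p = 0.000236), and Parp14, an ADP-ribosyltransferase, from 114 and 121 to 159 and 162.5 (0.46, adjusted p = 0.00372), and each passed in 13 of 13 alternatives. Ifi27l2a (0.42, adjusted p = 0.00277) and Parp9 (0.57, adjusted p = 0.00867) also rose, and neither was called without knockout replicate 1 (0.112 and 0.233), nor Parp9 without wild-type replicate 1 (0.0934). Mx1, the paralog of Mx2, had 0 and 10 counts in wild type and 69 and 40 in knockout and was called (adjusted p = 0.00805), a call lost without wild-type replicate 1 (0.0614) or knockout replicate 1 (0.227) and with DESeq2 (0.703). Without wild-type replicate 2 the remaining wild-type library had 0 counts of Mx1. The falls were Ly6e, a membrane protein, from 341 and 380 CPM to 275 and 301 (-0.33, adjusted p = 0.0165), and Ifitm1, which blocks virus entry, from 12.5 and 11.4 to 3.17 and 6.74 (-1.27, adjusted p = 0.0441). Ly6e was lost without wild-type replicate 2 (0.256) or knockout replicate 1 (0.303), and Ifitm1 passed in 5 of 13 alternatives and was lost without wild-type replicate 1 (0.141), wild-type replicate 2 (0.133) or knockout replicate 1 (-0.83, adjusted p = 0.420). The Ifit relatives Ifit2, at 4.20 and 5.17 CPM against 10.6 and 7.61, and Ifit1bl1, at 0.568 and 0.317 against 1.33 and 1.74, did not pass (adjusted p = 0.210 and 0.431), and were chosen after their values were seen.

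Antigen presentation genes that interferons induce showed little difference. Of 12 tested, 1 rose and 11 did not pass, with a median of 0.07. Tapbp, a chaperone of peptide loading, went from 415 and 416 CPM to 508 and 492 (0.27, adjusted p = 0.0306), and was lost without any 1 of the libraries (adjusted p of 0.0769 to 0.299). The peptide transporter Tap1 was at 323 and 345 against 361 and 374 (adjusted p = 0.445), the immunoproteasome subunit Psmb9 at 218 and 191 against 215 and 232 (0.573), and the proteasome activator Psme2 at 154.5 and 167 against 173 and 181 (0.575). Across the 6 lists without the members, 13 of 76 tested genes rose and 3 fell, against 1.45% and 1.21% of all tested genes. As the lists were chosen with earlier results known, this describes the choice.

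**Figure D4:**
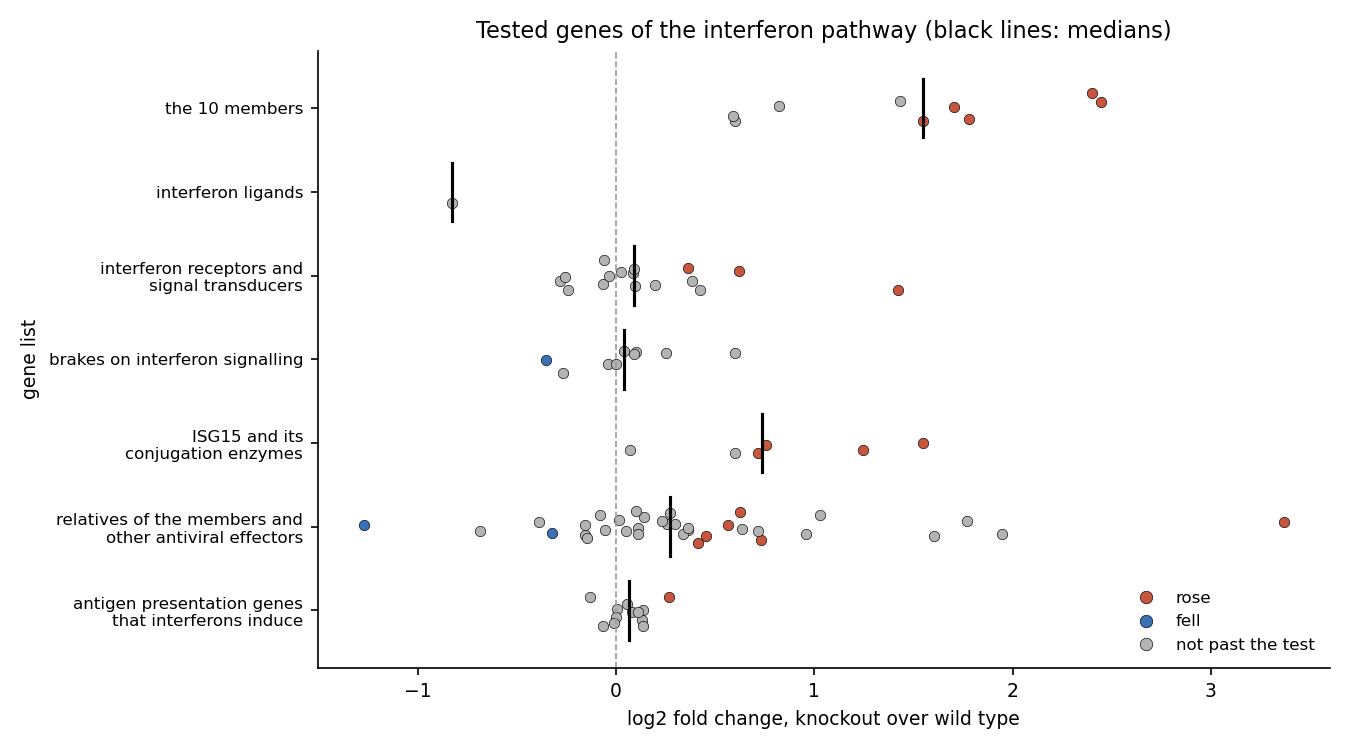
Log2 fold change of knockout over wild type for the tested genes among the 10 members and in 6 lists of the interferon pathway. Red points rose, blue points fell, grey points did not pass the test, and black lines are medians, 1.55 for the members, 0.74 for Isg15 and its conjugation enzymes and 0.07 for antigen presentation. Isg15 and Usp18 appear in more than 1 row, and points are spread vertically only for legibility.

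The genes whose pattern over the 4 libraries was most like that of the members were Pisd-ps2, Oas3, Ube2l6, Ifi203 and Amica1. Likeness was the Euclidean distance between a gene's log2 CPM, each less its own mean, and the median of the same over the 9 tested members, and these 5 were the nearest of 7981 genes, at 0.249, 0.286, 0.288, 0.339 and 0.343. Since the profile chose them, their differences are a description. Pisd-ps2, a pseudogene, was at 6.48 and 6.02 CPM in wild type and 14.6 and 17.1 in knockout. Oas3, an oligoadenylate synthetase, was at 9.09 and 10.1 CPM against 31.7 and 34.7, Ifi203, a PYHIN protein, at 11.1 and 11.9 against 40.6 and 38.2, and the adhesion molecule gene Amica1 at 16.5 and 19.5 against 54.5 and 45.6.

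The 4 libraries had 8837810 to 9739624 counts, with a count in 13527 to 13763 genes each, and the members took 0.00918% to 0.0255% of them. Pdk4 had 0 to 2 counts in each library of either genotype, at or under the floor of 3 counts, which checks nothing about the labels. The T cell genes Cd4, at 251 to 269 CPM, and Cd3e, at 64.3 to 75.3 CPM, were present in all libraries. Of 8 tested CD4 T cell markers, Cd5 rose (0.29) and Cd2 fell (-0.41), and the summed level was 2813 and 2876 CPM in wild type and 2645 and 2657 in knockout. Of 14 B cell markers 12 were tested, of which 9 fell and 3 did not pass, with a summed level of 225 and 261 CPM in wild type and 117 and 133 in knockout. Pax5 was at 0 in all libraries and Cd22 at 0 in the knockout. Of 9 tested markers of CD8 T and NK cells 1 fell, Gzma, and the sum was 420 and 434 CPM against 269 and 253, with Gzmk at 0. Most of that difference was Gzma, since without it the sum was 200.1 and 215 against 193 and 202 CPM. Much of that remaining sum was Nkg7, at 111 and 134 against 119 and 125 CPM. Of the 9 tested, 4 were lower in both knockout libraries, 0 higher in both and 5 overlapped, and 2510 of all 11464 tested genes were lower in both. Among the 4 were Cd8a (-2.52, adjusted p = 0.119) and Klrb1c (-2.13, adjusted p = 0.0887), which did not pass. Of 5 tested markers of plasmacytoid dendritic cells, which make type I interferon and carry Bst2, Spib fell and 4 did not pass. Their defining genes Siglech and Klk1 were at 0 in all libraries, and the sum was 116 and 118 CPM against 101 and 92.2. The 5 tested myeloid markers of 12 did not pass the test, and their sum over the list was 14.0 and 11.4 CPM in wild type and 4.50 and 17.5 in knockout. The part of these other cells in the levels of the members and of the pathway genes was not tested.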

How the data were processed

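RNA was measured in 4 libraries of stimulated mouse CD4+ T cells. The authors deposited raw counts for each gene symbol. The mm10 build, Bowtie2 and edgeR are named per the submitters' processing notes, without role or version. How reads were assigned to genes, and whether by strand, is not given in the sources used here. Each table had 23282 rows, and counts of 35 repeated symbols (0 members) were summed. The comparison of genotypes used edgeR 4.0.16 under R 4.3.3 (filterByExpr, TMM, estimateDisp, glmQLFit, two-sided quasi-likelihood F test, genotype as the only term), with Benjamini-Hochberg adjustment over 11464 genes. "Rose" and "fell" mean an adjusted p under 0.05. The standard error is the log2 fold change over the square root of F. CPM use TMM factors (0.989 to 1.01). The members and lists were chosen with earlier results of these data known, and no set test was run. Named genes are the members, up to 4 genes per list by smallest p, every list gene that passed, and the 5 nearest profiles among genes with a mean of 10 CPM or more in 1 genotype (log2 CPM with a prior count of 2). A gene of the pathway lists is not reported here. Gene positions are from GENCODE vM21. Alternatives were 3 other scalings, no filter, a filter at a mean of 5 CPM, DESeq2 1.42.0, limma-voom 3.58.1, a replicate block, leaving out Rn45s (11.6% to 12.3% of counts) and leaving out each library. At these depths 3 counts correspond to 0.308 to 0.339 CPM. Reads were not collapsed to molecules in the sources used here, so intervals on counts cover counting error only.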

Additional observations from a re-analysis of the deposited data

How the results depend on the processing

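Of 116 values of the 9 tested members over 13 alternatives, 113 kept direction and side of the threshold, 3 (Isg20) passed only in the alternative, and 0 changed sign. The stricter filter left out Ifit1, and DESeq2 gave Ifit3 no adjusted p. The count of members that rose was 5 to 6 with a library left out, and 0 fell. With a library left out, 92 to 148 of all genes rose and 75 to 145 fell, against 166 and 139 with all libraries, the lowest values coming without knockout replicate 1 (92 rose) and without wild-type replicate 2 (75 fell). For genes of the pathway lists outside the members these ranges were 5 to 10 rises and 0 to 4 falls, against 13 and 3, with 5 rises without knockout replicate 1, 8 without wild-type replicate 1, and 0 falls without knockout replicate 1 or wild-type replicate 2. DESeq2 gave 92 falls of all genes and 8 rises of pathway genes. The genotypes share replicate numbers, but the deviations of replicates with the same number correlated at only 0.0111 across genes, so the numbers were not taken as pairs. With the replicate block 5 members rose and 0 fell, 142 of all genes rose and 118 fell, and 11 pathway genes rose and 2 fell, the calls of Irf9 (adjusted p = 0.0532), Ube2l6 (0.071) and Ifitm1 (0.0652) being lost. Ifit1, Ifit3 and Mx2 rest on few wild-type counts, and with 2 libraries per genotype 1 library can set the spread.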
